A study of Mus musculus with 2 samples.

Results

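Lung Nes-GFP+ cells that carried transcripts of the cell division cycle numbered 541 of the 5820 lung cells examined (9.30%, exact 95% interval 8.56 to 10.1). A cell was counted as cycling when it held 2 or more unique molecular identifiers (UMIs, each standing for 1 captured transcript) of Mki67 and Top2a together and fewer than 2 UMIs of the thymocyte genes Cd8a, Cd8b1, Rag1, Themis and Dntt. These UMI counts chose the cells, so differences between them and the 4910 lung cells with 0 Mki67 and Top2a UMIs (the reference cells) are described below without a test. The remaining 369 cells held exactly 1 such UMI and stood between the groups.

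The cells came from adult Nestin-GFP mice about 6 weeks old, of strain C57BL/6 by the sample records, while the methods of the study give CD1 or mixed CD1/C3H wild-type animals as breeding partners. GFP in these mice is driven by regulatory elements of Nestin, an intermediate filament gene of neural stem cells that perivascular and other mesenchymal cells also use, so GFP marks activity of the transgene and not a lineage. Lung and brain were minced, digested with trypsin and sorted for GFP, and each tissue gave 1 library by 10x Chromium 3′ chemistry. No treatment was applied and no genotype was compared. With 1 library per tissue, from 1 biological replicate each, there was no replicate of any group, whether animals were pooled is not given in the sources used here, and every interval below covers counting error only.

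Dividing cells pass through an ordered programme of transcription. In late G1 and S phase, E2F factors switch on the genes that license replication origins, make deoxynucleotides and copy DNA. In G2 and mitosis, the MuvB complex with B-Myb and FoxM1 switches on genes for mitotic cyclins, kinetochores, the spindle and cytokinesis. Mki67 encodes the Ki-67 protein that coats mitotic chromosomes, and Top2a encodes the topoisomerase that untangles sister chromatids. Both are low in quiescent and early G1 cells, so a rule built on them favours S, G2 and mitosis. In the adult lung, mesenchymal and endothelial cells divide rarely, and pericytes (the contractile cells around capillaries), myofibroblasts and matrix fibroblasts are the main mesenchymal kinds.

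The promoters of 4 genes are shown as examples of sequence elements known from genes of this programme, chosen after the matches were seen: the genes of the rule, Mki67 and Top2a, then Hmgb2, which encodes a chromatin protein and had the most UMIs of the G2/M list apart from Top2a, and Mcm7, which encodes a subunit of the replicative helicase. Each sequence holds the 250 bases before the start that the RefSeq promoter table gives, read 5′ to 3′ on the strand of the gene, from RefSeq for GRCm38.p6. Capitals mark the cell cycle homology element (CHR, TTTGAA or TTTAAA), the CCAAT box, and the E2F element (TTTGGCGC, TTTCCCGC, TTTGCCGC or TTTCGCGC), on either strand. Mki67 lies on the minus strand (chr7:135716380-135716629) with 2 CHR matches and 3 CCAAT matches. Top2a lies on the minus strand (chr11:99024190-99024439) with 2 CHR matches and 6 CCAAT matches. Hmgb2 lies on the plus strand (chr8:57511593-57511842) with 2 CHR matches and 4 CCAAT matches. Mcm7 lies on the minus strand (chr5:138171884-138172133) with 2 CCAAT matches, 1 E2F match and no CHR match. Among 6 other promoters read over the same 250 bases, Cenpf, E2f8 and Nasp held CHR and CCAAT matches. Hmmr and Clspn held CCAAT matches alone and Tyms no match. Mcm7 and Clspn were picked because they held an E2F match within 300 bases (250 before and 50 after the start). In Clspn that match did not lie within the 250 bases before the start. The number of E2F matches among the 10 thus follows in part from this choice.
Mki67: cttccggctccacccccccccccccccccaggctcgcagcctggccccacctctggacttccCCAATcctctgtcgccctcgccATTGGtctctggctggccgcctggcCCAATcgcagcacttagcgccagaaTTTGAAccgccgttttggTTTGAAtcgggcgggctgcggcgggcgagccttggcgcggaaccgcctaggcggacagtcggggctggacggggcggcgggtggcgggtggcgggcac
Top2a: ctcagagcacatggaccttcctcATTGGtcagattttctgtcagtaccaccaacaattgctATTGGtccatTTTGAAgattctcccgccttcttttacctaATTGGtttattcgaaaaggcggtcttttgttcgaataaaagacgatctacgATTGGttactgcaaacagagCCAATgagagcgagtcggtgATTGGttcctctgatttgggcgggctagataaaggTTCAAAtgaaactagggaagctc
Hmgb2: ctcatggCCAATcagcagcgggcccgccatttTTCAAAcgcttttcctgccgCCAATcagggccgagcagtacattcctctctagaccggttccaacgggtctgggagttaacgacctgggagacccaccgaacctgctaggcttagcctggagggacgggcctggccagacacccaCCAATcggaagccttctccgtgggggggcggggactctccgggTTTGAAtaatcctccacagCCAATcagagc
Mcm7: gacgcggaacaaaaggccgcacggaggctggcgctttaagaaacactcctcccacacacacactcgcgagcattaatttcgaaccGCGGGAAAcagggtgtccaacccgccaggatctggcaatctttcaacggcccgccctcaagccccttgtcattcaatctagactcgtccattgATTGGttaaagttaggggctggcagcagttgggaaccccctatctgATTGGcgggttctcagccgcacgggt

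Over whole lists the same elements were counted, also in the 50 bases after the start. Among the G2/M genes called higher in the cycling cells (below), with Mki67 and Top2a left out, 44 of 51 had a promoter of 300 bases (250 before and 50 after the start) in the RefSeq table. CHR matches were present in 77.3% of them and CCAAT matches in 75%, against 27.9% and 38.0% of all 27025 promoters. Both elements stood together in 61.4%, against 11.0% of all promoters, and E2F matches in 4.55%, against 2.33%. TATAAA, also searched, was in 6.82%, against 14.2%. Over the 8380 tested genes with a promoter in the table, the shares were 19.2% for CHR, 39.1% for CCAAT, 7.90% for both together, 4.53% for E2F and 6.87% for TATAAA. Against these genes, the G2/M shares of E2F and TATAAA were close to the background. Spindle and cytokinesis genes (22 of 26 matched) held a CHR match in 86.4% and a CCAAT match in 63.6%. Replication fork genes (23 of 27 matched) held a CHR match in 13.04%, a CCAAT match in 52.2% and an E2F match in 21.7%. For the S phase list (26 of 36) and the origin licensing list (13 of 18), fewer than 80% of the genes were matched and no share is given. The lists differ in size, a match is a description of letters, and binding was not measured.

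The lung library held 5981 barcodes and 36816962 UMIs, of which 5915 barcodes had more than 200 genes and under 40% mitochondrial UMIs. Of these, 95 carried 2 or more thymocyte UMIs and were set aside, 15 of them cycling. Cycling cells were sampled more deeply than reference cells. Their median was 8959 UMIs (quartiles 5117 and 12742) and 3325 genes, against 5615 UMIs and 2465.5 genes in reference cells. When cells with at least 2000 UMIs (513 members and 4333 reference cells) were thinned to that number, the median number of genes was 1230 in cycling cells and 1184 in reference cells. The share of cells with 4000 or more genes was 29.8% among cycling cells and 2.55% among reference cells. Scrublet marked 4.99% of cycling and 2.30% of reference cells as doublets. The lung and brain libraries shared 15 barcodes.

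The rule gave a broad range of values. The median member held 13 UMIs of the pair and the highest held 108. Just inside the threshold, 81 members had 2 UMIs, 33 had 3, 40 had 4 and 18 had 5. The remaining 369 members had 6 or more. Both genes were seen in 434 members, only Mki67 in 72 and only Top2a in 35. Members with 2 UMIs had a median depth of 6135, close to the 6197 of cells with 1 UMI just outside the threshold, while members with 6 or more had a median depth of 11136. Mki67 (chr7:135689784-135716450, GRCm38) had 4147 UMIs in members, and Top2a (chr11:98992947-99024199) had 6602.

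Other genes of the cycle were read to check the label. UMIs of the S and G2/M lists, with Mki67 and Top2a left out, were summed for each cell per 10000 of its UMIs. In 492 of 541 members (90.9%, 88.2 to 93.2) this sum exceeded the 95th percentile of reference cells, which was 29.1. The share was larger at higher counts of the pair that chose the cells. It was 56.8% (45.3 to 67.8) in members with 2 UMIs, 84.6% in members with 3 to 5, and 369 of 369 in members with 6 or more. Among cells with 1 UMI, outside the rule, 22.8% (18.6 to 27.4) exceeded it. Other cycle genes thus accompanied the pair in most members, and at the threshold itself in only 46 of 81.

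Lineage was read from 4 small marker sets, each cell taking the set with the highest UMI sum where that sum reached 2 and was at least 2 times the next. Pdgfrb, Cox4i2 and Higd1b were taken for pericytes, Tgfbi and Hhip for myofibroblasts, Npnt and Tcf21 for matrix fibroblasts, and Cldn5 and Pecam1 for endothelial cells. Of the cycling cells, 246 (45.5%, 41.2 to 49.8) fell in the Tgfbi/Hhip class and 217 (40.1%, 36.0 to 44.4) in the pericyte class. Among cells with fewer than 4000 genes, a limit that belongs to the cell filter in the methods of the study and was tried here as an alternative, the order was the other way, with 193 of 380 members (50.8%) in the pericyte class and 136 (35.8%) in the Tgfbi/Hhip class. In all cells, the endothelial class held 31 (5.73%) and the Npnt/Tcf21 class 5 (0.924%). A further 24 had several marker sets without a lead, and 18 had none.

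The classes differed in how many of their cells were cycling. The Tgfbi/Hhip class had the highest share, 246 of 1600 cells (15.4%, 13.6 to 17.2). The pericyte class had 217 of 2756 (7.87%, 6.90 to 8.94), the endothelial class 31 of 657 (4.72%, 3.23 to 6.63) and the Npnt/Tcf21 class 5 of 139 (3.60%, 1.18 to 8.19). Cells with several marker sets were cycling in 24 of 274 (8.76%, 5.69 to 12.8). As counted, the intervals of the Tgfbi/Hhip and pericyte classes did not overlap, those of the pericyte and endothelial classes did not overlap either, and the Npnt/Tcf21 interval covered both the endothelial and the pericyte share.

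Depth differed between the classes. Members of the Tgfbi/Hhip class had a median of 11694.5 UMIs, those of the endothelial class 9691, those of the Npnt/Tcf21 class 8498 and those of the pericyte class 6028. At a fixed 2000 UMIs per cell, with 641 shallower cells left out, the expected share was 12.4% in the Tgfbi/Hhip class, 5.56% in the pericyte class, 2.98% in the endothelial class and 2.10% in the Npnt/Tcf21 class, and the order was kept. The intervals of the thinned pericyte and endothelial shares overlapped (4.69 to 6.56 and 1.85 to 4.72). The ratio of the Tgfbi/Hhip to the pericyte share was 1.95 (1.62 to 2.35) as counted and 2.23 after thinning. Without cells of 4000 or more genes it was 1.30, which left 136 of the 246 Tgfbi/Hhip members and 193 of the 217 pericyte members, with overlapping intervals (7.84 to 10.9 and 6.21 to 8.20).

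**Figure D1:**
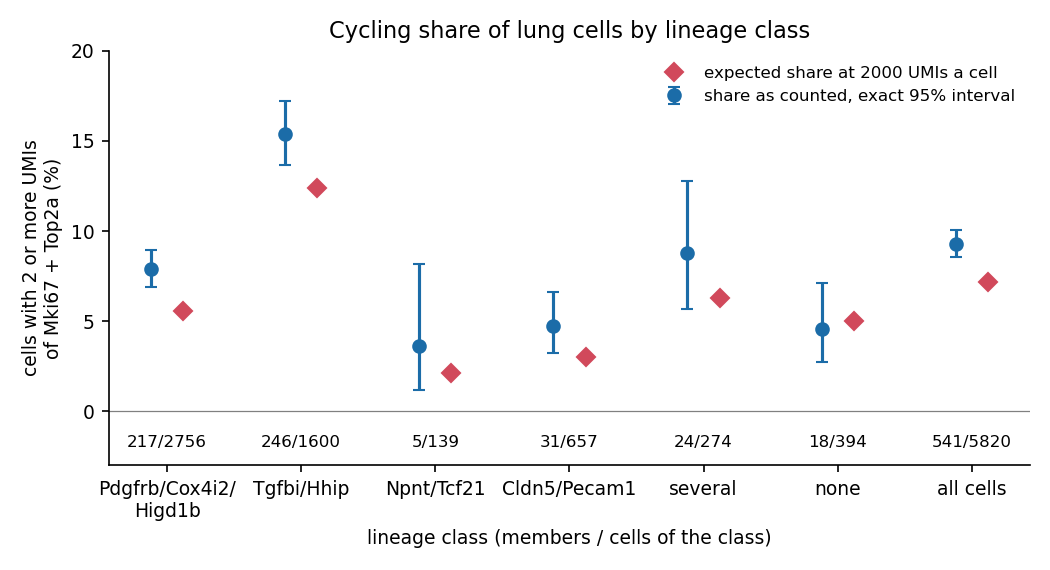
Share of lung cells with 2 or more UMIs of Mki67 and Top2a (y axis, percent) in each lineage class (x axis, with members over cells of the class below each name), as counted with exact 95% intervals (circles) and after thinning to 2000 UMIs per cell (diamonds). The Tgfbi/Hhip class lies highest on both scales, at 15.4% and 12.4%. Cells with several marker sets stand at 8.76% and 6.28% and the pericyte class at 7.87% and 5.56%.

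Wider marker lists were checked against the classes. Hhip is also in the myofibroblast list and Npnt in the smooth muscle list, and the other genes of these lists did not choose the classes. Of the pericyte-class members, 216 of 217 held 5 or more UMIs of the 20-gene pericyte list (Notch3, Kcnj8, Abcc9 and others), with a median of 16525 counts per 1000000 UMIs (CPM) per cell, against 20393 in pericyte-class reference cells. In the Tgfbi/Hhip class, 96.3% of members held 5 or more UMIs of the myofibroblast list, with a median of 6790 CPM against 10095. All 31 endothelial members held 5 or more UMIs of the endothelial list, at a median of 16065 against 18824 CPM. Each list had a lower median in members than in their reference cells. The lists did not separate the classes at this threshold, since 98.4% of Tgfbi/Hhip members also held 5 or more UMIs of the matrix fibroblast list and 82.9% of the pericyte list, and 76.0% and 80.6% of pericyte-class members held 5 or more of the myofibroblast and matrix fibroblast lists. In the 5 Npnt/Tcf21 members the myofibroblast and smooth muscle lists summed to 12400 and 17109 CPM, against 2312 and 2185 in their reference cells. The matrix fibroblast list summed to 14203 CPM in these members, against 46600 CPM in their reference cells. Of these members' UMIs, the top cell of each list held 46.9% (myofibroblast), 45.4% (smooth muscle) and 60.3% (matrix fibroblast). Npnt and Tcf21 were also seen in 58.2% and 53.8% of pericyte-class reference cells, so the class is named by its genes alone.

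Transcripts of another class were also seen. Pericyte-class members held 113.5 CPM of Tgfbi against 38.96 in pericyte-class reference cells, a ratio of 2.91 (2.44 to 3.47), with 33 of 217 members carrying it and 22.2% of the UMIs in 1 cell. Pdgfra, the PDGF receptor of fibroblast lineages, stood at 49.0 against 21.9 CPM in the same class, a ratio of 2.24. It was 1.99 without cells carrying other-type markers, 1.56 without the cells Scrublet marked, 1.30 without cells of 4000 or more genes and 4.50 with lineage taken from the whole profile.

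The 18 members without a lineage were not alike. Schwann and neural markers reached 17 to 75 UMIs in 5 of them, and 3 of these cells carried Sox10, a transcription factor of Schwann and neural crest cells. T cell markers reached 31 and 134 UMIs in 2 cells. In 1 cell, 179 UMIs were of myeloid markers, including 29 of Lyz2, which encodes lysozyme, and 11 of Csf1r, the macrophage colony stimulating factor receptor. In 4 cells, 96 to 381 UMIs were of the matrix fibroblast list with Col1a1 among them, although Npnt and Tcf21 were under 2.

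Markers of other cell types were counted at a fixed number of UMIs, which deeper cells reach more often, and members were the deeper group (8959 against 5615 UMIs). Over the T cell, leukocyte, myeloid, epithelial, Schwann and erythroid lists, 42 members (7.76%) and 195 reference cells (3.97%) held 5 or more UMIs of at least 1 list. The T cell list had the widest gap, with 21 members (3.88%) against 40 reference cells (0.815%), and its sum was 142 CPM against 87.6 CPM, with 2 of its 14 genes at 0 in members. Tcf7 and Thy1 had the most UMIs of its 4 tested genes. Schwann and neural markers did not differ in this direction, at 1.48% against 1.51% of cells and 56.9 against 65.4 CPM, and epithelial markers summed to 75.2 against 552 CPM. Erythroid genes summed to 2322 against 1454 CPM, but 67.5% of the members' erythroid UMIs came from 1 pericyte-class cell. Hbb-bs, an adult beta globin gene, stood at a ratio of 3.65 that became 0.838 without cells carrying other-type markers, and Hba-a1, an alpha globin gene, went from 2.12 to 0.751. The part of these cells in the gene results below was measured by leaving out all such cells of both groups, which gave 798 genes called higher and 499 called lower, against 807 and 497 with them. Of the 807 and 497, 762 and 422 were called in both.

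Genes were compared with the level expected from reference cells of the same lineage class, so that a different class mix of members and reference cells did not enter the ratio. The ratio over all classes still weights each class by its members' UMIs, of which the Tgfbi/Hhip class held 2711985 of 5079672. Cells within a class could still differ, and with the Tgfbi/Hhip class limited to cells with fewer than 2 UMIs of Dcn, Clec3b and Scara5 (a split described below), 366 genes were lower, 303 of them among the 497 called lower here. A gene was called higher at 2 or more times the expected UMIs and lower at 0.5 times or less, among the 10734 genes with at least 30 observed or expected UMIs. Of these, 807 (7.52%) were higher and 497 (4.63%) lower, and the median ratio over all genes was 0.984. The ratio is of observed to expected UMIs, whereas CPM given over all classes are not adjusted for class, so that their quotient can differ from the ratio beside them. Intervals of the ratio take the expected UMIs as fixed and are too narrow where the reference holds few UMIs. The calls come from the contrast that chose the cells and are given as a description.

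The highest ratios came from genes almost unseen in reference cells. Esco2, which encodes the acetyltransferase that locks cohesin onto sister chromatids, had 753 UMIs in 281 members where 0.985 were expected, a ratio of 765. It rests on 5 UMIs in reference cells, and with both counts taken into the interval the CPM ratio was 854 (364 to 2637). The next genes rest on 4 to 28 reference UMIs each. Ska1, a kinetochore protein that couples chromosomes to shrinking microtubules, stood at 516, Kif18b, a mitotic kinesin, at 447 and Hmmr, a spindle protein, at 373. Pbk, a mitotic kinase, stood at 395, Neil3, a DNA glycosylase, at 361, E2f8, a repressing E2F factor, at 330 and Kif14, a cytokinesis kinesin, at 327. Nek2, a centrosome kinase, stood at 323, Troap, a spindle-associated protein, at 299, and Cep55, an abscission protein, at 282.

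Other genes of the highest 15 had 1 or 2 UMIs in reference cells, and their ratios are the least bounded. Pif1, a DNA helicase, had 140 UMIs in members and 1 in reference cells, a CPM ratio of 794 (140 to 31564). Hist1h2an, a replication-dependent histone gene, had 139 and 1 UMIs, a CPM ratio of 788 (139 to 31340). Depdc1a had 245 and 2 UMIs (694, 190 to 5766), Hist1h2af 185 and 2 (524, 143 to 4362) and BC030867 79 and 2 (224, 60.0 to 1881). Histone transcripts without a poly(A) tail are captured inefficiently by oligo(dT) priming, so levels of histone genes are those of the captured fraction, and reads of near-identical histone copies may be shared between them.

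S phase genes were higher almost throughout. Of 38 S list genes tested, 36 were higher and none lower, with a median ratio of 9.55. Tyms, thymidylate synthase, stood at 253 CPM against 14.5 in reference cells, a ratio of 19.2 (18.1 to 20.2), and was seen in 338 of 541 members. Nasp, a histone chaperone, stood at 279 against 68.1 CPM (4.10, 3.88 to 4.31).

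Origin licensing and fork genes showed the same direction with smaller ratios. Licensing genes (Mcm, Orc, Cdc and related loaders) were higher in 18 of 19 tested, with a median of 6.57. Among them Mcm10, needed to activate the helicase, stood at 69.9, Dbf4, the activator of the Cdc7 kinase, at 28.9 and Gmnn, the licensing inhibitor geminin, at 16.7, while Orc2, an origin recognition subunit, stood at 1.95. Replication fork and nucleotide genes were higher in 27 of 28, with a median of 6.00. Rrm2, the regulated subunit of ribonucleotide reductase, had a ratio of 79.9 (239 against 2.57 CPM), Dut, which removes dUTP, 4.67, and Rfc1, the large clamp loader subunit, 1.999, just short of the call.

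Genes of G2 and mitosis showed the largest ratios of the lists. All 51 G2/M genes tested were higher, with a median of 80.8 and a range from 2.04 for Ctcf, the insulator protein, to 373 for Hmmr. Hmgb2 stood at 1002 against 41.4 CPM (26.8, 26.1 to 27.6) and Cenpf, a kinetochore protein of late G2, at 814 against 4.24 CPM (208, 201 to 214). The 26 spindle and cytokinesis genes were all higher, with a median of 125 and Cit, citron kinase, lowest at 18.8. In this list Prc1, which bundles midzone microtubules, had 4012 UMIs (88.6), and Birc5, survivin of the chromosomal passenger complex, had 2669 (243).

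Kinetochore and checkpoint genes were higher in 25 of 25, with a median of 59.8. Cenpa, the centromeric histone, stood at 51.4 and Bub3, a checkpoint protein that many cells also hold outside mitosis, at 3.27. Condensin and cohesin genes were higher in 10 of 13, with a median of 7.95. Smc2 and Smc4, the condensin core, stood at 24.0 and 11.0 and Ncapd2, another condensin subunit, at 43.3, while Stag2 of cohesin stood at 1.36. Of 12 genes for the anaphase promoting complex and mitotic exit, 5 were higher. Cdc20, its mitotic activator, stood at 116, while subunits such as Anapc5 (1.75) and Cdc16 (0.997) were not called. Chromatin and histone genes were higher in 27 of 30, with Hist1h1b, a linker histone gene, at 292 and Tubb5, a beta tubulin gene of the same list, at 3.91.

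**Figure D2:**
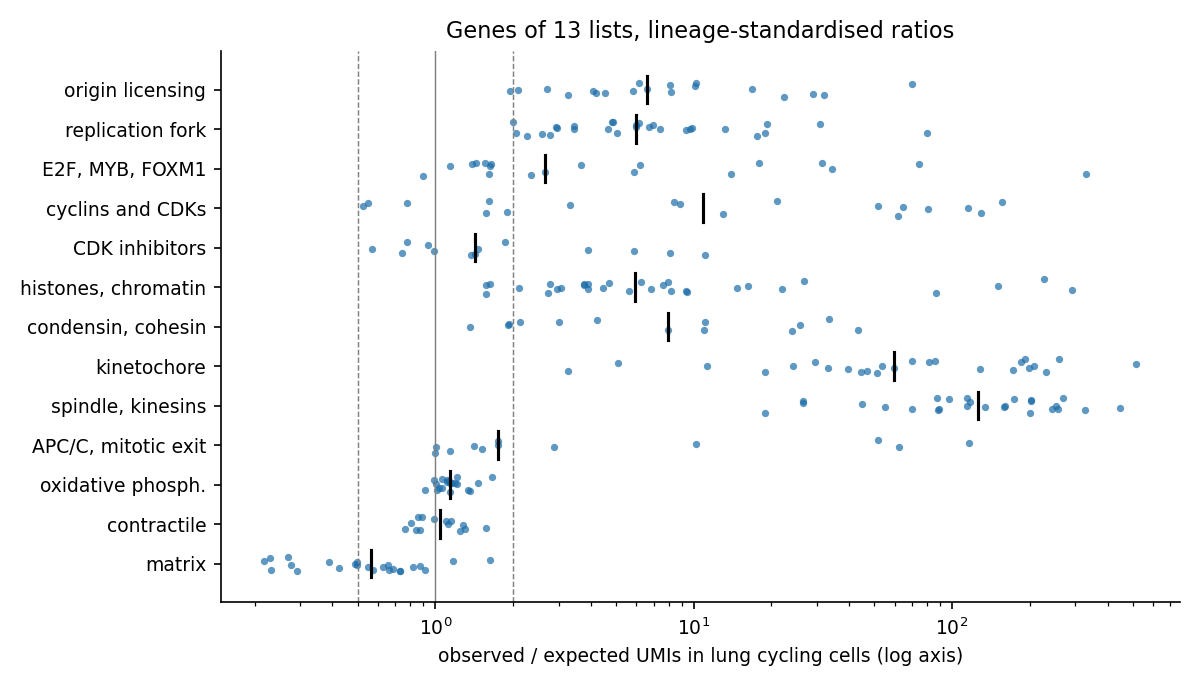
Ratio of observed to expected UMIs in lung cycling cells (x axis, log scale) for each tested gene (points) of 13 gene lists (y axis), the expected level coming from reference cells of the same lineage class, with medians as bars and dashed lines at 0.5 and 2. Points of the spindle list centre on 125 and of the kinetochore list on 59.8, whereas matrix genes centre on 0.56 and contractile genes on 1.05.

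Cyclins and their kinases were called in part. Of 18 tested, 12 were higher and none lower. Ccnb1, the mitotic cyclin B1, stood at 188 against 1.18 CPM (157, 147 to 167), Cdk1, its kinase, at 655 against 11.0 CPM (61.9), and Cks1b, a Cdk-binding subunit, at 495 against 54.5 CPM (8.39). Ccne1 and Ccne2, the E cyclins of the G1 to S step, stood at 20.99 and 12.96. The D cyclins, which act in G1, were not called over all classes. Ccnd1 stood at 1.57, Ccnd2 at 0.52 (170 against 340 CPM) and Ccnd3 at 0.55. Ccnd1, Ccnd3, Ccne1 and Ccne2 were picked after their values were seen.

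Cell cycle inhibitors and E2F regulators were mixed. Of 13 inhibitors tested, 4 were higher and none lower. Rbl1, the pocket protein p107, stood at 11.0 and Cdkn2c, the Cdk4/6 inhibitor p18, at 3.91 times its 383 expected UMIs. Btg2, an antiproliferative gene, stood at 0.75 and Gas1, a growth arrest gene, at 0.57, neither called. Cdkn1a, which encodes p21 and was picked after its value was seen, stood at 1.86. Of 19 genes for E2F, B-Myb and FoxM1 regulators, 11 were higher. Foxm1 stood at 34.4, while the constitutive partners Tfdp2 and Lin37 stood at 1.44 and 0.89.

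Each member was placed by its S and G2/M list levels, again without Mki67 and Top2a. The median member held 26.5 S UMIs and 119 G2/M UMIs per 10000, against 3.75 and 9.75 in reference cells. Cells with 1 UMI of the pair were at 4.48 and 11.6, members with 2 UMIs at 5.37 and 22.4, and members with 6 or more at 33.5 and 157. S exceeded G2/M in 95 of 541 members (17.6%, 14.4 to 21.03). The share was 18.4% in the pericyte class, 16.3% in the Tgfbi/Hhip class and 25.8% (11.9 to 44.6) in the endothelial class, and these intervals overlapped. The G2/M list has more genes than the S list (51 and 39), and the rule favours late phases, so these shares do not measure the time spent in each phase.

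**Figure D3:**
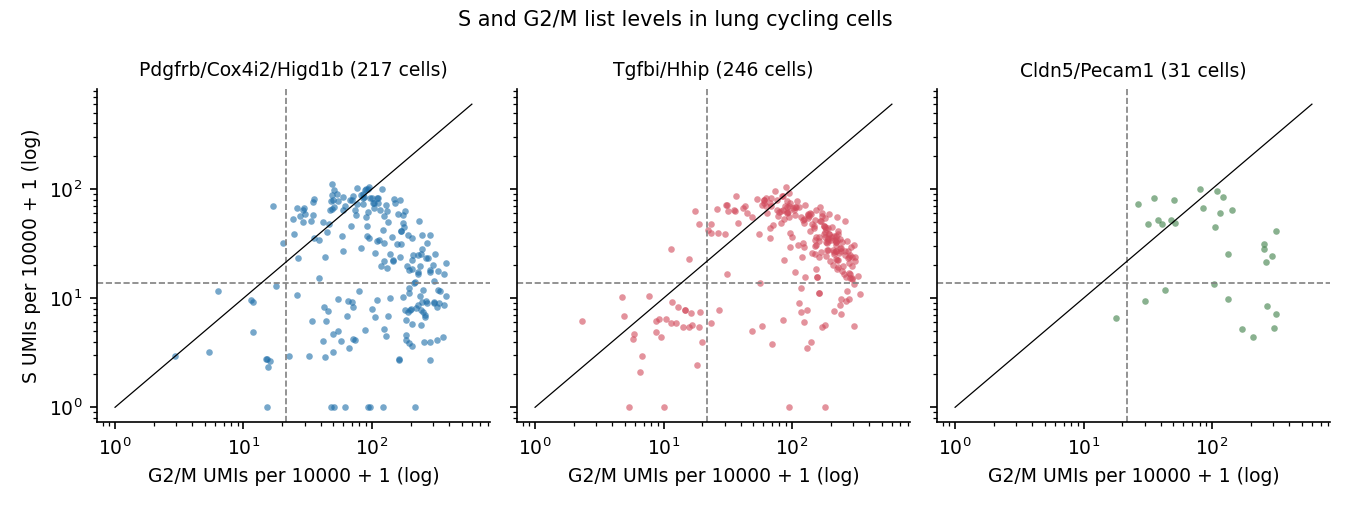
S list level (y axis) against G2/M list level (x axis) of each cycling cell, both as UMIs per 10000 plus 1 on log axes and without Mki67 and Top2a, in separate panels for the pericyte, Tgfbi/Hhip and endothelial classes, with the line of equality drawn and dashed lines at the 95th percentile of reference cells. Most points lie below the line, where G2/M exceeds S, and the share above it was 18.4% in the pericyte class and 16.3% in the Tgfbi/Hhip class.

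Outside the cycle, extracellular matrix genes called over all classes differed in 1 direction. Of 24, 11 were lower and none higher, with a median of 0.56 against 0.984 for all genes. Col3a1, a fibrillar collagen, had 14491 UMIs against 49602 expected (0.29, 0.287 to 0.297), Sparc, a collagen-binding glycoprotein, 18476 against 37811 (0.49) and Col14a1, a fibril-associated collagen, 647 against 2967 (0.22). Col13a1, a transmembrane collagen, had the highest ratio of the list, 1.62. By class, 12 of 24 were lower and 1 higher in the Tgfbi/Hhip class, and 1 of 23 lower and 1 higher in the pericyte class. In the endothelial class 5 of 14 were lower and 5 higher. In the Tgfbi/Hhip class the values moved with markers of matrix fibroblasts, as described below.

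Other programmes differed in how many genes were called. None of 14 contractile genes was called (median 1.05), nor any of 20 growth factor receptor genes (median 0.92), 20 oxidative phosphorylation genes (median 1.14) or 3 reporter-related filament genes. Nes, the gene whose regulatory elements drive GFP, stood at 472 against 341 CPM (1.30, 1.25 to 1.35), Vim at 1.10 and Des at 0.76. Of 18 immediate early genes, which respond within minutes to growth signals and stress, 4 were lower and none higher (median 0.70), with Atf3 at 0.42, Fos at 0.78 and Junb at 0.81. Of 14 glycolytic genes, Gapdh was higher (2.14) and Aldoa lower (0.30), while Ldha stood at 1.13.

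The 10 lowest ratios came from genes with 0 to 19 UMIs in members. Scgb1a1, Scgb3a1 and Scgb3a2, secretoglobins of airway club cells, had 1, 3 and 2 UMIs in members against 155, 82.7 and 403 expected. Their reference UMIs came from 22, 38 and 15 cells. Sftpc, surfactant protein C of alveolar type II cells, had 19 against 639 expected (0.030). It was seen in 17 of 541 members and 154 of 4910 reference cells, so the low ratio does not stand for fewer cells with the gene. Chi3l3 and Retnla, genes of activated macrophages, had 0 and 1 against 36.5 and 107 expected, with UMIs in 7 reference cells each. Inmt, a gene of the matrix fibroblast list, had 1 UMI against 42.2 expected, Mmp3, a matrix metalloproteinase, 2 against 81.2, Shisa3 1 against 54.0 and Fam198a 1 against 34.2. These genes were seen in 84, 96, 163 and 157 reference cells. The epithelial list was lower in 4 of 6 tested genes, and 49 reference cells (0.998%) and 6 members (1.11%) held 5 or more of its UMIs.

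Within the pericyte class, 615 of 7359 genes tested (8.36%) were higher and 118 (1.6%) lower, with a median of 0.990. The cycle lists were again the higher ones, with 49 of 51 G2/M genes and 34 of 36 S genes. Outside them the highest were Esco2, Troap, Pbk, Cep55 and the histone gene Hist1h2ab, with ratios from 354 to 721 that rest on 1 to 6 reference UMIs each. Esco2 had 186 UMIs against 2 (721, 197 to 5995) and Pbk 333 against 6 (430, 196 to 1180).

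The marker genes of the pericyte class had ratios below 1 in its cycling cells. Higd1b, a hypoxia-inducible mitochondrial gene, stood at 1674 against 2550 CPM (0.66, 0.63 to 0.68), Cox4i2, a cytochrome oxidase isoform, at 1586 against 2550 CPM (0.62) and Pdgfrb, the PDGF receptor of mural cells, at 1372 against 1842 CPM (0.74). These genes chose the class, and none was called. Ccnd2 was lower, at 194 against 467 CPM (0.41, 0.37 to 0.47), with UMIs in 98 of 217 members and 1689 of 2378 reference cells. It stayed at or below 0.44 in each alternative handling of cells tried.

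Some other genes among the 615 called higher and 118 called lower in the pericyte class follow. Cdkn1a stood at 25.8 against 6.16 CPM (4.19, 2.78 to 6.24), from 40 UMIs in 25 members, and Cdkn2c at 241 against 33.0 CPM (7.30, 6.32 to 8.43), from 120 members. The lowest genes were Slfn5 (0.17, 18.1 against 104 CPM), a Schlafen family gene, Vldlr, a lipoprotein receptor (0.22), Abhd14b (0.22), Tcp11l2 (0.22) and Mvp, the major vault protein gene (0.23). Of 23 matrix genes, Lox, lysyl oxidase, was lower (0.43) and Tnc, tenascin C, higher (2.23), with a median of 0.80. Tnc was not called without cells carrying other-type markers (1.84), without the cells Scrublet marked (1.72) or without cells of 4000 or more genes (1.20). Lyz2 was higher at 2.18, with 84.4% of its UMIs in 1 cell, and was 0.44 without cells carrying other-type markers.

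Within the Tgfbi/Hhip class, 793 of 9044 genes (8.77%) were higher and 589 (6.51%) lower, with a median of 1.01. All 51 G2/M genes and 36 of 38 S genes were higher. Outside the cycle lists the highest were Esco2 (485 UMIs against 2), Pbk (710 against 4), Sapcd2 (155 against 1), Neil3 (399 against 3) and Hist1h2af (119 against 1). Pbk stood at 538 (209 to 1982) and Neil3 at 403 (137 to 1965). The lowest 5 genes had no UMIs in members. Among them Retnla and Scgb3a1 came from 4 reference cells each, Tyrobp, a myeloid adaptor, from 9, Lgals3, galectin 3, from 15 and Shisa3 from 65.

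Matrix genes were lower in this class. Of 24, 12 were lower and 1 higher, with a median of 0.49. Dcn, the proteoglycan decorin (chr10:97479500-97518163), stood at 246 against 2406 CPM (0.10, 0.095 to 0.11), and Col1a1, the main fibrillar collagen, at 2133 against 11062 CPM (0.19). Col3a1 stood at 3241 against 13480 CPM (0.24). Contractile genes were not called in 13 of 13, with a median of 1.20. Acta2, smooth muscle actin, stood at 2359 against 1939 CPM (1.22, 1.18 to 1.25) and Tagln, transgelin, at 2003 against 2204 CPM (0.91).

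The matrix difference moved with a split inside the class. Reference cells of the Tgfbi/Hhip class held a wide range of the matrix fibroblast list, from 203 to 210979 CPM per cell with a median of 6379, and members from 312 to 92550 with a median of 3637. The class was therefore divided, after its values were seen, by UMIs of Dcn, Clec3b and Scara5, genes of adventitial fibroblasts. Cells with fewer than 2 such UMIs were cycling in 224 of 1298 (17.3%, 15.2 to 19.4), and cells with 2 or more in 22 of 302 (7.28%, 4.62 to 10.8). At 2000 UMIs per cell the shares were 14.1% and 5.31%. The 22 members with 2 or more held Acta2 at 7.22 times, Nes at 6.66, Tagln at 5.88 and Fgf18 at 3.74 times the CPM of the reference cells with 2 or more, and Dcn at 0.26 times.

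Among cells with fewer than 2 of those UMIs, several differences became smaller and others did not. Col1a1 stood at 1262 against 2058 CPM (0.61, 0.59 to 0.64), no longer called. Aspn, asporin, a small matrix proteoglycan of myofibroblasts (chr13:49544443-49567565), stood at 258 against 1691 CPM (0.15, 0.14 to 0.17), Eln, elastin, at 356 against 1276 CPM (0.28, 0.26 to 0.30) and Mfap4, an elastic fibre protein, at 155 against 462 CPM (0.33, 0.30 to 0.37). Hhip, a Hedgehog-binding protein and 1 of the class markers, stood at 37.4 against 107 CPM (0.35). These genes were picked after their values were seen. Pdgfra stood at 386 against 326 CPM (1.18), Nes at 569 against 503 CPM (1.13) and Acta2 at 2407 against 2654 CPM (0.91).

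Whether the class is read from its markers or from its whole profile mattered for some of these genes. When each cell took the lineage whose reference profile it correlated with best, over genes outside the rule and the cycle lists, Col1a1 stood at 0.70, Dcn at 1.27, Acta2 at 0.73 and Mfap4 at 0.48, while Aspn stood at 0.16 and Eln at 0.28. Without cells of 4000 or more genes Eln stood at 0.52 and Aspn at 0.34. Among cells with 2 or more UMIs of Dcn, Clec3b and Scara5, Aspn stood at 0.37. Aspn was thus at 0.15 to 0.37 in these comparisons, whereas Dcn and Col1a1 were not called lower in each of them.

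**Figure D4:**
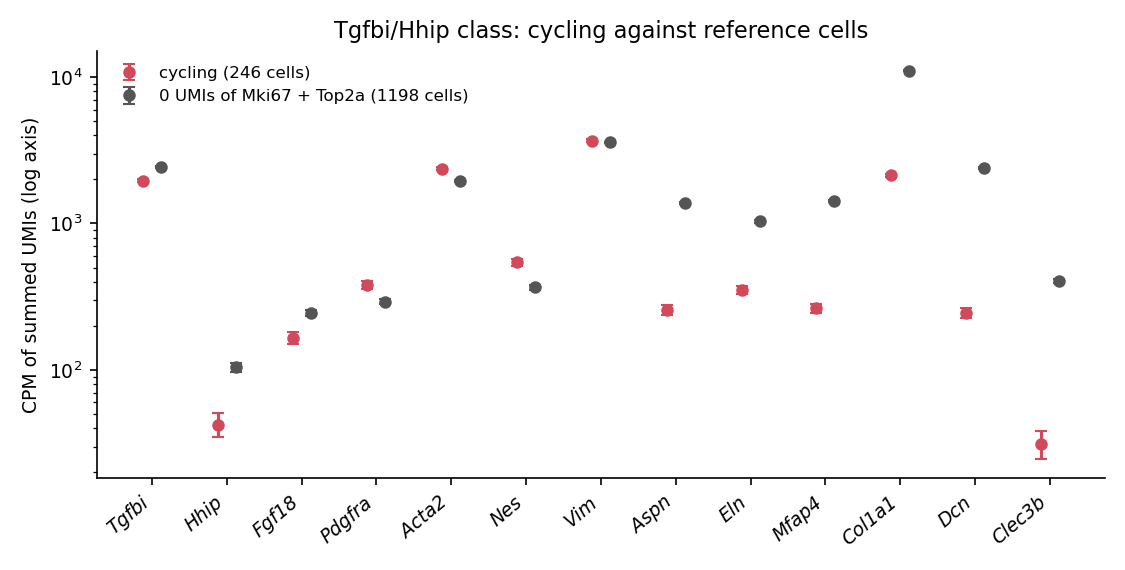
Level of selected genes in cycling and reference cells of the Tgfbi/Hhip class (y axis, CPM of summed UMIs on a log scale, with exact 95% intervals, and genes along the x axis). Col1a1 (2133 against 11062 CPM), Aspn (257 against 1387 CPM) and Mfap4 (263 against 1426 CPM) lie lower in cycling cells, while Acta2 and Vim (3685 against 3583 CPM) lie close together.

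Regulators of the cycle differed between genes in this class too. Cdkn2c stood at 357 against 114 CPM (3.13, 2.86 to 3.42), in 202 of 246 members. Gas1 was lower, at 104 against 238 CPM (0.44), as was Ccnd3, at 14.7 against 30.9 CPM (0.48, 0.33 to 0.67). Of 16 immediate early genes 4 were lower, with Atf3 at 13.3 against 66.1 CPM (0.20). Tgfbi (chr13:56609586-56639359), the other class marker, stood at 1958 against 2437 CPM (0.80, 0.78 to 0.83), and Fgf18, a growth factor of myofibroblasts, at 165 against 245 CPM (0.67). Under the split by Dcn, Clec3b and Scara5, both went in opposite directions. Tgfbi stood at 0.64 and Fgf18 at 0.50 in cells with fewer than 2 of those UMIs, and at 1.80 and 3.74 in cells with 2 or more.

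Within the endothelial class of 31 members, 278 of 3005 genes (9.25%) were higher and 158 (5.26%) lower, with a median of 1.05. G2/M genes were higher in 38 of 39 tested and S genes in 18 of 19. The highest outside the lists were Pbk (62 UMIs against 1 in reference cells), Casc5, a kinetochore scaffold (63 against 3), Cep55 (38 against 2), Mxd3, a Max-binding repressor (55 against 3), and Neil3 (33 against 2). Of these, Casc5 had a ratio of 212 (69.4 to 1058). Cldn5, a tight junction claudin, stood at 3203 against 3831 CPM (0.84) and Pecam1 at 1081 against 1066 CPM (1.01), and these genes placed the cells in the class. Of the 20 genes of the wider endothelial list, 1 was higher and 3 were lower, with a median of 0.87. Pericyte list genes were also seen, with 5 or more UMIs in 58.1% of members and 24.0% of reference cells, which differ in depth (medians of 9691 and 5613 UMIs). Their level was 763 CPM against 694, with 38.4% of the members' UMIs in 1 cell, and their part in the results was not tested. Rgs5, a pericyte gene, stood at 6.99, with 91.0% of its 67 UMIs in 1 member. It stood at 8.07 without cells carrying other-type markers and 11.3 without the cells Scrublet marked. Without cells of 4000 or more genes it was 1.35, from 5 UMIs, under the minimum of 30.

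Endothelial state genes differed by kind, with 2 of 12 higher and 4 lower. Apln, the peptide apelin found in tip cells and in proliferating capillary cells (chrX:48025146-48034853), stood at 164 against 12.2 CPM (13.5, 9.13 to 20.04). Its 64 UMIs came from 7 of 31 members, and 70.3% of them from 1 cell. The call was lost under the minimum of 30 UMIs without cells carrying other-type markers, that cell among them (4.72, from 19 UMIs), without the cells Scrublet marked (4.69, from 19) and without cells of 4000 or more genes (6.88, from 10). Counted by cells, 7 of 31 endothelial cells with Apln were cycling (22.6%, 9.59 to 41.1) and 24 of 626 without it (3.83%, 2.47 to 5.65), with median depths of 9789 and 5688.5 UMIs. Of the 217 pericyte-class members, which should lack the gene, 0 held Apln at a median depth of 6028 UMIs, which allows a share of cells with an Apln UMI of up to 1.38% at 3 counts (exact upper limit 1.69%). This split was chosen after the values were seen.

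Genes of capillary and larger vessel endothelium also differed. Gpihbp1, the capillary anchor of lipoprotein lipase, stood at 1043 against 475 CPM (2.20, 1.97 to 2.45), and Kdr, the VEGF receptor, at 604 against 303 CPM (1.99, 1.73 to 2.30), just under the call. Vwf, von Willebrand factor of larger vessels, was lower at 113 against 784 CPM (0.14, 0.10 to 0.19), with UMIs in 5 of 31 members (16.1%) and 417 of 604 reference cells (69.04%), at median depths of 9691 and 5613 UMIs. In the pericyte class, which should lack it, 2.30% of members and 2.35% of reference cells held Vwf, at median depths of 6028 and 5168. Gja5, an arterial connexin, stood at 66.8 against 380 CPM (0.18), Sox17, an arterial transcription factor, at 313 against 732 CPM (0.43) and Ednrb, an endothelin receptor, at 123 against 499 CPM (0.25). Vwf was between 0.028 and 0.17 under every handling of cells tried. Gja5, Sox17 and Ednrb were picked after their values were seen.

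Cycle regulators followed another order in endothelial cells. Ccnd1 was higher, at 265 against 66.8 CPM (3.96, 3.12 to 4.99), with 38.8% of its 103 UMIs in 1 cell. Ccnd2 was lower, at 82.2 against 268 CPM (0.31, 0.21 to 0.44), and Cdkn1c, the inhibitor p57, at 118 against 535 CPM (0.22, 0.16 to 0.30). Cdkn2c stood at 170 against 12.95 CPM (13.1, 8.95 to 19.3). The matrix list had 5 genes higher and 5 lower of 14, but 1 cell held 86.9% of the members' UMIs of the matrix fibroblast list. Col1a2 went from 3.08 to 0.14 without cells carrying other-type markers. Acta2 and Tagln, with 4 and 1 UMIs in members, were among the 5 lowest genes, beside the globin genes Hbb-bs (4 UMIs), Hbb-bt (1) and Hba-a1 (5), whose 428, 104 and 236 expected UMIs came from 81, 13 and 31 reference cells.

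**Figure D5:**
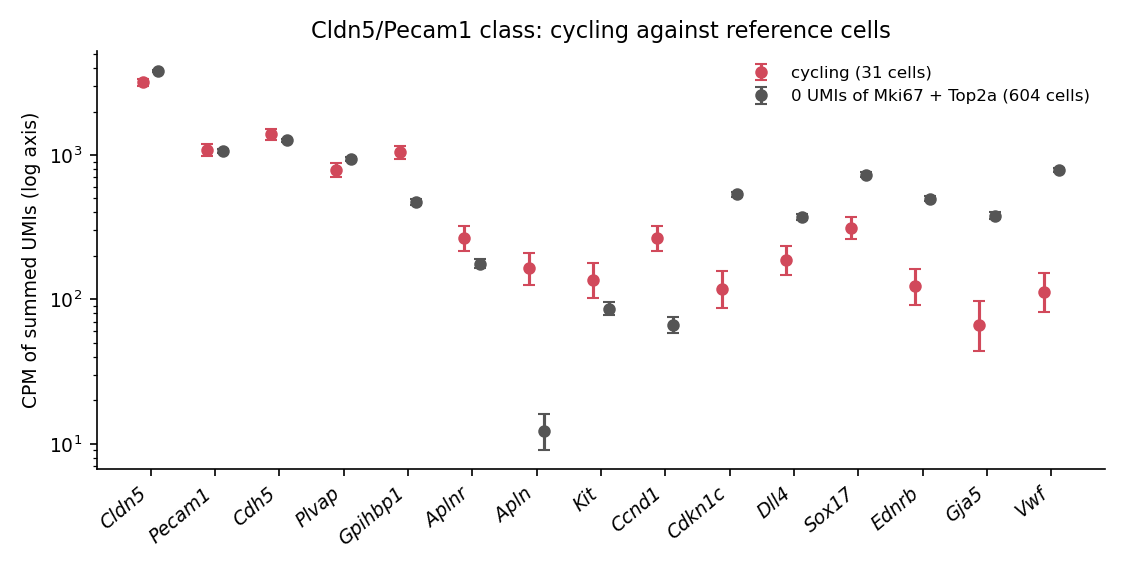
Level of selected genes in cycling and reference cells of the endothelial class (y axis, CPM of summed UMIs on a log scale, with exact 95% intervals, and genes along the x axis). Apln (164 against 12.2 CPM) and Gpihbp1 (1043 against 475 CPM) lie higher in the 31 cycling cells, Vwf (113 against 784 CPM) lies lower, and Cldn5 and Pecam1 lie close together.

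In the 3 classes with at least 30 members, cyclin D2 was called lower in the pericyte class (0.41) and the endothelial class (0.31), and not in the Tgfbi/Hhip class (0.63) or over all classes (0.52). Cdkn2c was called higher in the pericyte, Tgfbi/Hhip and endothelial classes, at 7.30, 3.13 and 13.1. Cdkn1c stood at 0.86 in the pericyte class, 0.92 in the Tgfbi/Hhip class and 0.22 in the endothelial class, called lower in the last. Because the members were chosen on 2 cycle genes, these values say nothing of early G1. Other S and G2/M genes exceeded the 95th percentile of reference cells in 492 of the 541 members, and not in the rest.

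The same rule in the brain library marked 715 of 4569 cells (15.6%, 14.6 to 16.7). At 2000 UMIs per cell the expected share was 13.8% in brain and 7.16% in lung. Tissue and library cannot be told apart in this comparison. Of 11477 genes tested, 20.5% were higher and 19.3% lower in lung than in brain cycling cells, with a median ratio of 0.877. The S list summed to 3484 CPM in lung against 6651 in brain cycling cells, and 14 of its 38 genes were lower and none higher (median 0.56). Licensing genes summed to 1312 against 2389 CPM, with 10 of 20 lower, and Mcm7 stood at 115 against 345 CPM (0.33, 0.31 to 0.37). Reference cells without the pair differed in the same direction, with the S list at 504 CPM in lung against 963 in brain and the licensing list at 243 against 377.

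Mitotic lists were also compared. The G2/M list summed to 14116 CPM in lung against 19211 in brain cycling cells, with 1 gene higher and 7 lower of 51 (median 0.73), and to 1063 against 2226 CPM in reference cells. Both counts are smaller shares than over all genes tested between the tissues (20.5% higher and 19.3% lower). Spindle genes summed to 5453 against 6758 CPM and kinetochore genes to 4281 against 5442. In the G2/M list Ccnb2, a B-type cyclin, was higher at 334 against 147 CPM (2.27, 2.10 to 2.46) and Psrc1, a spindle protein, lowest at 0.35. S exceeded G2/M in 17.6% of lung and 23.2% (20.2 to 26.5) of brain cycling cells.

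Regulators of the cycle differed between the tissues too. Ccnd2 stood at 170 CPM in lung against 3658 in brain cycling cells (0.046, 0.043 to 0.050), and Cdkn1b, p27, at 91.0 against 404 CPM (0.23). Cdkn1c was higher, at 244 against 45.1 CPM (5.42, 4.80 to 6.14), and Pttg1, securin, at 244 against 33.9 CPM (7.19, 6.27 to 8.28). Myc stood at 16.1 against 2.89 CPM and Mycn at 10.0 against 77.9 CPM. Neural genes were nearly absent from lung cycling cells, with 3 UMIs of Dcx, a neuroblast gene, against 2635 and 3 of Sox2, a neural stem cell factor, against 3519. Dcx was picked after its value was seen. All 24 matrix genes and all 14 contractile genes were higher in lung.

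The 15 cycling cells set aside as thymocytes were chosen by T-lineage genes, which fixed their high level of the T cell list (15982 CPM, against 142 CPM in the 541 members). The filter left 21 members with 5 or more T cell UMIs, among them the cells without a lineage that held 31 and 134. Of the 21, 9 were in the Tgfbi/Hhip class and 8 in the pericyte class. Leaving out all cells with thymocyte or Cd3 UMIs left 535 of the 541 members. The S list of the thymocytes summed to 8036 CPM (7453 to 8653) and their G2/M list to 18542 CPM, both above the 3484 and 14116 CPM of members. Mki67 stood at 686 CPM in thymocytes and 816 in members, and Top2a at 2229 and 1300 CPM.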

How the data were processed

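Single-cell libraries of Nes-GFP+ cells, 1 from lung and 1 from brain, were analysed from the tables the authors deposited, which hold raw UMI counts for each gene and barcode. According to the submitters' processing notes these were made with bcl2fastq 2.19.1.403, UMI-tools 1.0.0, STAR 2.7.1a and featureCounts 1.6.4 on mm10; how barcodes were chosen and whether doublets were removed is not given in the sources used here.

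Barcodes with more than 200 genes and under 40% mitochondrial UMIs were kept. The study's filter also has an upper limit on genes, 4000, which was used here as an alternative. Counts were summed over cells of a group and given as CPM. Ratios set observed UMIs against those expected from reference cells of the same lineage class. Their intervals (95%) are exact Poisson for the observed UMIs, with the reference taken as fixed, exact conditional binomial within a class and between libraries, and exact Clopper-Pearson for shares. Thinned shares are hypergeometric expectations at 2000 UMIs. There was no test, since each group had 1 library. The calculation was tested on simulated counts. Doublets were scored with Scrublet in scanpy 1.11.5 and kept. Python 3.11.15, scipy 1.17.1 and pandas 2.3.3 were used.

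Genes named were the 15 highest and 10 lowest ratios, the 10 highest outside the cycle lists, up to 4 per list, and the 5 highest and lowest per class, with exceptions stated. Members and lists were chosen with earlier results of these data known. Of 534 list genes, 516 had counts, and the others were not analysed here.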

Additional observations from a re-analysis of the deposited data

How the results depend on the processing

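Of 71 values of the comparisons recomputed under another setting, 55 kept their direction and size, as did 1245 of 1295 values of single genes and lists. A count kept its size within 1.5 times, a share or ratio within its 95% interval, a phase level within the members' quartiles, a gene by its call and a list median within 1.5 times. Within this tolerance, genes called lower numbered 615 with all reference cells as 1 class (403 shared with the 497) and 366 with the Tgfbi/Hhip class limited to cells low in Dcn, Clec3b and Scara5 (303 shared). The share of cycling lung cells was 15.6% with at least 1 UMI of the pair, 7.90% with at least 3 and 6.89% among cells with fewer than 4000 genes. Restricting to fewer than 4000 genes also gave 50.8% of members in the pericyte class, 35.8% in the Tgfbi/Hhip class, cycling shares of 9.28% (Tgfbi/Hhip) and 3.06% (endothelial), a Tgfbi/Hhip to pericyte ratio of 1.30, and 315 genes called lower, 240 of them shared with the 497. With lineage taken from the whole profile, 51.9% of members were of the Tgfbi/Hhip class. Thinned to 1000 UMIs, the shares were 3.77% (pericyte) and 8.98% (Tgfbi/Hhip), with a ratio of 2.38. Thinned to 4000 UMIs, the pericyte share was 7.22%. A minimum of 10 UMIs per gene gave 886 genes called lower and a minimum of 100 gave 249. Without cells carrying other-type markers, Hba-a1 stood at 0.751 and Hbb-bs at 0.838, below 1. Scaling to counts outside the cycle lists gave 856 genes higher and 425 lower. Removing Scrublet doublets, lowering the mitochondrial limit to 10% or removing all cells with thymocyte or Cd3 UMIs kept the share of cycling cells between 9.07% and 9.39%. No paired analysis was possible because each group was 1 library without replicates. The cause of these shifts was not tested. The number of cells limits the Npnt/Tcf21 class, with 5 members, and the endothelial class, with 31.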
